A study of Homo sapiens with 12 samples.

Results

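Across 4 tau constructs in SH-SY5Y neuroblastoma cells, 4 lipid synthesis enzymes were followed: HMGCS1, MSMO1 and NSDHL of sterol synthesis and ACACA of fatty acid synthesis. They were chosen by gene name and are 4 of the 1676 genes of the deposited table, each with 1 row. Every gene of it has an adjusted p under 0.05 in the authors' deposited table (highest 0.0499). It is thus a selected list and not all genes measured. Shares and ranks over the table, and the adjustment for multiple testing, cover that list alone. SH-SY5Y is an established human line from a metastatic bone tumour, used as a model of neurons, and polyadenylated RNA was taken 24 h after transfection. The constructs were tau carrying both K174Q and S199E (Tau-K174Q-S199E), tau with K174Q (Tau-K174Q), tau with S199E (Tau-S199E) and wild-type tau (Tau-WT), with 3 libraries each. Glutamine in place of lysine mimics acetylation, and glutamate in place of serine mimics phosphorylation. Cells of all 4 groups were transfected with tau, and the sources used here give neither the promoter of the constructs nor the share of cells transfected. The labels do not say that replicate libraries are separate cultures, so each p-value speaks for the spread among these 12 libraries alone, which may be technical.

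Cells build cholesterol from acetyl-CoA. HMGCS1 joins acetyl-CoA and acetoacetyl-CoA into HMG-CoA in the cytosol, from which mevalonate is made. IDI1 then acts on the isoprenoid units made from mevalonate. After the sterol ring has closed, CYP51A1 removes a methyl group from lanosterol, MSMO1 oxidises methyl groups at carbon C-4, and NSDHL takes part in removing them in the same enzyme complex. ACACA makes malonyl-CoA, the committed step of fatty acid synthesis. Genes of both routes are known targets of the SREBP transcription factors, which are activated when membrane sterol is low. Neurons make part of their own cholesterol, which they need for membranes and synapses.

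The values are standardised per gene, with mean 0 and SD 1 over the 12 libraries, so a difference is given in SD units of that gene and is not a fold change. Levels of different genes cannot be compared on this scale, and depth is unknown. The genes of the table share a pattern: in 1676 of 1676 genes, the log2 fold change in the authors' deposited table agrees in sign with the interaction of K174Q and S199E, and also with Tau-WT minus Tau-S199E. The sign also agrees in 1675 genes with Tau-WT minus Tau-K174Q, and in 1672 with Tau-K174Q-S199E minus Tau-S199E. It agrees in 1613 genes with Tau-K174Q-S199E minus Tau-K174Q, in 1416 with Tau-K174Q minus Tau-S199E and in 134 with Tau-K174Q-S199E minus Tau-WT. Differences and calls in these contrasts are therefore not independent of how the table was selected. Libraries 10 to 12 are Tau-S199E, 4 to 6 Tau-K174Q, 16 to 18 Tau-K174Q-S199E and 1 to 3 Tau-WT. Library 12 stood apart, with an SD over the genes of 1.67, against 0.83 and 0.77 in libraries 10 and 11. In the other libraries this SD lay between 0.47 and 1.21.

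HMGCS1 (ENSG00000112972) lies on chromosome 5, 43289395 to 43313512, minus strand, and MSMO1 (ENSG00000052802) on chromosome 4, 165327623 to 165343160, plus strand (GRCh38, GENCODE 29). NSDHL (ENSG00000147383) lies on the X chromosome, 152830967 to 152869729, plus strand, and ACACA (ENSG00000278540) on chromosome 17, 37084988 to 37406818, minus strand. All 4 are protein-coding. The 3′ end of HMGCS1, which a 3′ kit reads, is covered by an antisense gene, AC114947.2, over 1445 bases. The sources used here do not give the strand setting of the counting, so reads of these 2 genes may not have been told apart. ACACA holds 5 other annotated genes within its span, and none of them covers its 3′ end.

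The promoters are shown because 3 of these genes moved one way and NSDHL the other. Each window runs from 250 bases before to 50 after the most upstream RefSeq start (GRCh38.p14, 5′ to 3′ on the gene's strand). Capitals mark CCAAT and TCACNCC on either strand. CCAAT is the box bound by NF-Y, and TCACNCC is a shortened form of the sterol regulatory element TCACNCCAC, to which SREBP binds.
HMGCS1, chr5:43313363-43313662, minus strand: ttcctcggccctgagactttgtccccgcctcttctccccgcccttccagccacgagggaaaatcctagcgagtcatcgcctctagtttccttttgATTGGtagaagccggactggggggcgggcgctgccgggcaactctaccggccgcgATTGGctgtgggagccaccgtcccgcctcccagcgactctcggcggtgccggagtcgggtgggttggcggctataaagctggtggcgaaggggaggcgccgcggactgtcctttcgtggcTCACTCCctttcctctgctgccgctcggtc
MSMO1, chr4:165327419-165327718, plus strand: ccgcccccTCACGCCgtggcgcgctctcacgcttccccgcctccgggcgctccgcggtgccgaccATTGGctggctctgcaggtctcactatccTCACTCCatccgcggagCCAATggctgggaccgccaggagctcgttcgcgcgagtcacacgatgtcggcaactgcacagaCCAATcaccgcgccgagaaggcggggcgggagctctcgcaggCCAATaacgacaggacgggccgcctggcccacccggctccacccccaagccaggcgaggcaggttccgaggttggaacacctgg
NSDHL, chrX:152830813-152831112, plus strand: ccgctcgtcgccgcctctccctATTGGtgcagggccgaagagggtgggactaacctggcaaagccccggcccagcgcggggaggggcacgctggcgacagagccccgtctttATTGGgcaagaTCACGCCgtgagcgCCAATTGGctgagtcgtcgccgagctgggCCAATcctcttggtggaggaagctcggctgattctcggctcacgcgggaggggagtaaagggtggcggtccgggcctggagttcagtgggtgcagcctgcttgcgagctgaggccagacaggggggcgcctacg
ACACA, chr17:37406787-37407086, minus strand: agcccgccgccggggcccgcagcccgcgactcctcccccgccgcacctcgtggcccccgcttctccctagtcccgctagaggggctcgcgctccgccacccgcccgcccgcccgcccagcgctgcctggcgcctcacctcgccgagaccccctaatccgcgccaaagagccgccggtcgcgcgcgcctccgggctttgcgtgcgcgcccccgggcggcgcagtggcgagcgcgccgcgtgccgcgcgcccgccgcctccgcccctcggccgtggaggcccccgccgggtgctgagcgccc

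CCAAT occurred 5 times in the NSDHL window, 4 times in that of MSMO1, 2 times in that of HMGCS1 and 0 times in that of ACACA. In NSDHL 2 of the 5 matches overlap, because ccaattgg reads as the box on both strands. The 2 other ACACA starts had 1 and 2 matches, and 34.6% of 35116 RefSeq windows of this length held the box. TCACNCC was found 2 times in MSMO1 and 1 time each in HMGCS1 and NSDHL, against 15.5% of all windows with a match. The longer TCACNCCAC was in 0 of the 7 windows of these genes and in 1.13% of all windows. NSDHL and MSMO1 thus share these letters although their RNA levels differed in opposite directions, and a match is a description of the sequence, not a site.

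HMGCS1 had standardised values of -1.03, -0.53 and 0.30 with Tau-K174Q-S199E, 0.07, 0.45 and -0.30 with Tau-K174Q, 0.88, 1.51 and 1.54 in the Tau-S199E libraries, and -0.16, -1.55 and -1.19 with Tau-WT. The 3 Tau-S199E libraries were the highest of the 12, and no other library reached them. Tau-WT library 1 lay above the other 2 Tau-WT libraries, among the values of Tau-K174Q and Tau-K174Q-S199E.

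MSMO1 had standardised values of -0.72, -0.57 and 0.24 with Tau-K174Q-S199E, 1.14, 0.30 and 0.41 with Tau-K174Q, 0.57, 0.64 and 1.75 in the Tau-S199E libraries, and -1.10, -1.47 and -1.18 with Tau-WT. All 3 Tau-WT libraries lay below the other 9. Tau-K174Q and Tau-S199E overlapped, and the Tau-K174Q-S199E libraries lay between them and Tau-WT.

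NSDHL ran the other way, with values of 0.74, 0.13 and -0.51 with Tau-K174Q-S199E, -0.96, -0.28 and 0.25 with Tau-K174Q, -1.10, -0.91 and -1.34 in the Tau-S199E libraries, and 1.27, 1.36 and 1.36 with Tau-WT. The Tau-WT libraries were nearly alike (SD 0.05, n = 3) and above the other 9. With Tau-K174Q (SD 0.60) and Tau-K174Q-S199E (SD 0.63) the libraries were spread widely and overlapped each other.

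ACACA had values of -0.81, 0.73 and 0.49 with Tau-K174Q-S199E, 1.12, 0.82 and 0.54 with Tau-K174Q, 0.68, -0.23 and 0.70 in the Tau-S199E libraries, and -0.83, -1.13 and -2.09 with Tau-WT. Its order of means differed from that of HMGCS1 and MSMO1, with Tau-K174Q (0.83 ± 0.29) above Tau-S199E (0.38 ± 0.53), although these groups overlapped. Tau-K174Q-S199E library 16 was nearly as low as the highest Tau-WT library, while libraries 17 and 18 lay among those of the constructs with K174Q or S199E alone.

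**Figure D1:**
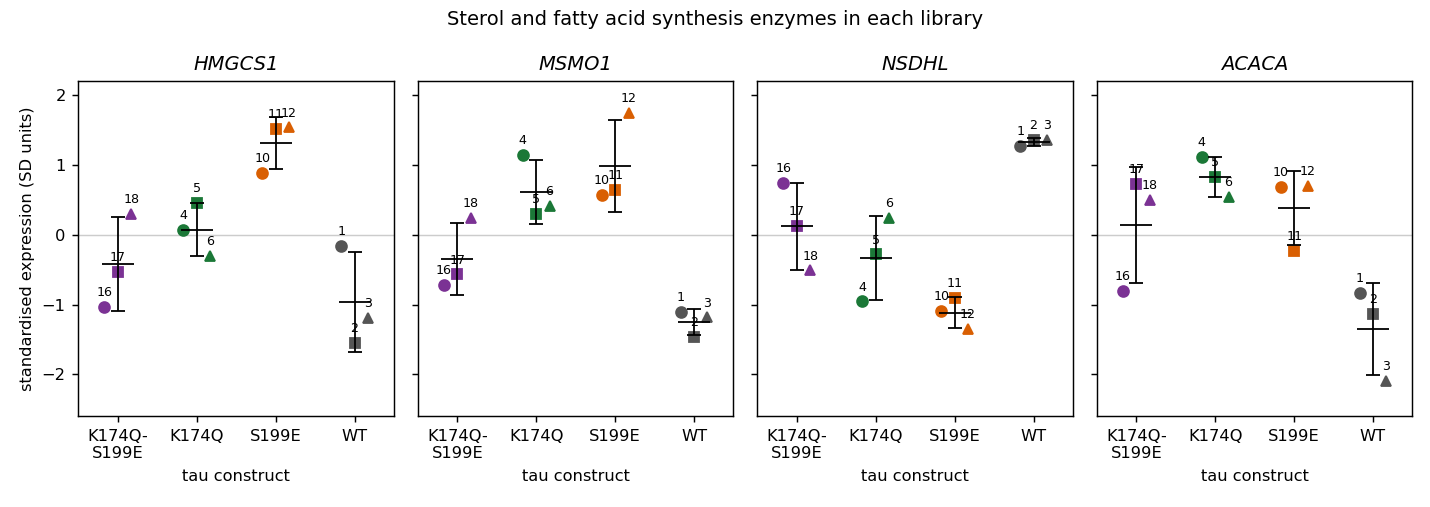
Standardised expression (SD units, vertical axis) of HMGCS1, MSMO1, NSDHL and ACACA by tau construct, where each point is a library with its number, the bar is the mean and the whisker the SD of 3 libraries. NSDHL runs opposite to the other genes, with all Tau-WT libraries between 1.27 and 1.36, and library 18 is nearer to Tau-K174Q and Tau-S199E than library 16 in each panel.

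The effect of the phosphorylation mimic alone was read from Tau-S199E against Tau-WT. HMGCS1 averaged 1.31 ± 0.37 with Tau-S199E and -0.96 ± 0.72 with Tau-WT (SD, n = 3 each), a rise of 2.28 SD units (SE 0.46, limma adjusted p = 0.00989). MSMO1 averaged 0.98 ± 0.66 with Tau-S199E and -1.25 ± 0.19 with Tau-WT, and rose by 2.23 (SE 0.40, adjusted p = 0.00968). NSDHL averaged -1.12 ± 0.22 with Tau-S199E and 1.33 ± 0.05 with Tau-WT, and its difference of -2.44 (SE 0.37, adjusted p = 0.00968) was the 8th lowest of the 1676 genes. ACACA rose by 1.74 (SE 0.50, adjusted p = 0.016). All 4 genes passed, where 90.0% of the table passed, with 48.3% higher and 41.8% lower, so the count itself is near the background. With moderated variance and in the fit on the 6 libraries compared all 4 also passed, where 98.4% and 72.0% of the table did. In bulk RNA fewer cells of a kind and less RNA per cell cannot be told apart. Their libraries did not overlap between the constructs, as in 94.2% of the genes. Without Tau-S199E library 12 the sterol enzymes still passed, while ACACA differed by 1.58 and did not (adjusted p = 0.0542, 49.7% of the table called).

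Tau-K174Q against Tau-WT asks the same of the acetylation mimic, and shares its Tau-WT libraries with the comparison above. Taken as Tau-WT minus Tau-K174Q, it has the sign of the authors' deposited fold change in 1675 of the 1676 genes, all 4 enzymes included. The difference was 2.18 SD units for ACACA (SE 0.50, 95% interval 1.03 to 3.33), the 18th highest of the 1676. It was 1.87 for MSMO1 (SE 0.40, 0.95 to 2.79), -1.66 for NSDHL (SE 0.37, -2.50 to -0.81) and 1.04 for HMGCS1 (SE 0.46, -0.02 to 2.09). None of the 4 passed in the limma fit, with adjusted p of 0.066 for ACACA, MSMO1 and NSDHL and 0.0972 for HMGCS1, and 0% of the table was called, although 870 genes had an unadjusted p under 0.05. The libraries of the 2 constructs did not overlap for ACACA, MSMO1 and NSDHL, as in 80.7% of the genes, and overlapped for HMGCS1. ACACA, MSMO1 and NSDHL passed with limma's moderated variance (adjusted p = 0.00692, 0.00866 and 0.0136, with 59.9% of the table called) and in the fit on the 6 libraries compared (48.9% called). They also passed without Tau-K174Q-S199E library 18 (40.3% called), which enters only through the shared spread. ACACA and NSDHL passed without library 16 as well (2.86% called). With ranks MSMO1 alone of the 4 passed (adjusted p = 0.0483, with 26 of the 1676 genes called).

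Tau-K174Q-S199E against Tau-WT asks what both substitutions do together, again with the same Tau-WT libraries. None of the 4 genes passed (adjusted p from 0.533 to 0.552), and 0% of the table did, while 127 genes had an unadjusted p under 0.05. By moderated variance the count over the table was also 0. ACACA differed by 1.49 SD units (SE 0.50, 95% interval 0.35 to 2.64), the 8th highest of the 1676 differences. NSDHL differed by -1.21 (SE 0.37, -2.05 to -0.36), the 51st lowest. The difference was 0.90 for MSMO1 (SE 0.40, -0.02 to 1.82) and 0.54 for HMGCS1 (SE 0.46, -0.51 to 1.60). HMGCS1 differed by 0.18 without Tau-K174Q-S199E library 18 and by 0.95 without Tau-WT library 1. The libraries of the 2 constructs did not overlap for ACACA, NSDHL and MSMO1, against 11.6% of the genes of the table. For ACACA the gap was narrow, between -0.81 in Tau-K174Q-S199E library 16 and -0.83 in Tau-WT library 1.

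**Figure D2:**
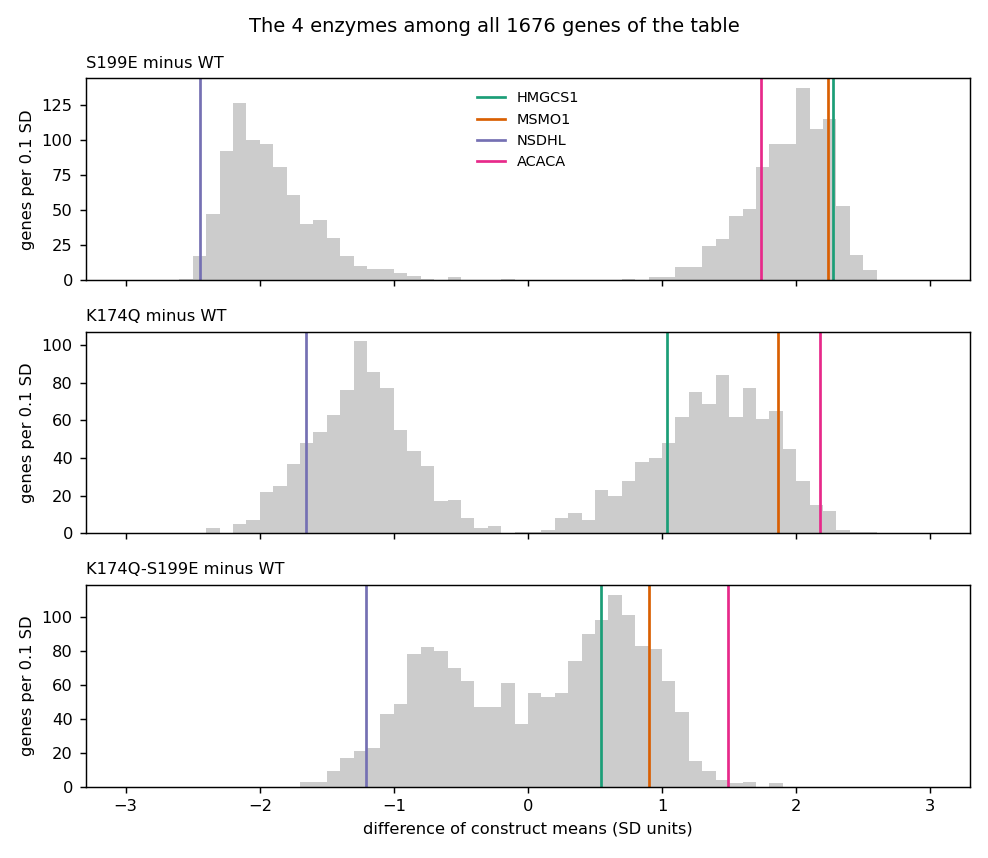
Histograms of the difference from Tau-WT (SD units, horizontal axis) over the 1676 genes of the table, in bins of 0.1, for Tau-S199E, Tau-K174Q and Tau-K174Q-S199E, with a line for each enzyme. HMGCS1 lies nearer the upper edge with Tau-S199E (2.28) than with Tau-K174Q (1.04), while ACACA lies near the upper edge in the panels of Tau-K174Q (2.18) and of Tau-K174Q-S199E (1.49).

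Tau-K174Q-S199E against Tau-S199E asks what K174Q adds to S199E. HMGCS1 averaged -0.42 ± 0.67 with Tau-K174Q-S199E and 1.31 ± 0.37 with Tau-S199E, a difference of -1.73 (SE 0.46, adjusted p = 0.0644). MSMO1 differed by -1.33 (SE 0.40, adjusted p = 0.0649) and NSDHL by 1.24 (SE 0.37, adjusted p = 0.0649). The comparison shares its Tau-S199E libraries with that of Tau-S199E against Tau-WT, and in 1672 of the 1676 genes, all 4 enzymes included, the difference has the sign of the authors' deposited fold change. Libraries did not overlap in these 3 genes, against 43.4% of the table. ACACA had a difference of -0.25 (95% interval -1.39 to 0.90, adjusted p = 0.64) and overlapping libraries, and its sign turned without library 16 (0.23). None of the 4 passed, and 0.119% of the table was called. Without Tau-K174Q-S199E library 18 HMGCS1 differed by -2.09, MSMO1 by -1.63 and NSDHL by 1.55 and all 3 passed (adjusted p = 0.0179, 0.0192 and 0.0179), with 78.5% of the table called. They passed with moderated variance too (adjusted p = 0.0155, 0.0328 and 0.0428, 68.8% called), and with ranks HMGCS1 and MSMO1 passed (adjusted p = 0.0443 and 0.0413, with 411 of the 1676 genes called). In the fit on the 6 libraries compared none passed (adjusted p = 0.223 for all 3, with 0 genes called). Without Tau-S199E library 12 or Tau-K174Q-S199E library 16 none passed either, with adjusted p between 0.185 and 0.197.

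Tau-K174Q-S199E against Tau-K174Q asks what S199E adds to K174Q. The differences were -0.96 for MSMO1 (95% interval -1.88 to -0.05), -0.69 for ACACA (-1.83 to 0.46), -0.49 for HMGCS1 (-1.55 to 0.56) and 0.45 for NSDHL (-0.39 to 1.29). Leaving out 1 library moved ACACA between -0.98 (without library 17) and -0.22 (without library 16), HMGCS1 between -0.85 (without library 18) and -0.19 (without library 16), and NSDHL between 0.14 (without library 4) and 0.77 (without library 18). None passed (adjusted p from 0.456 to 0.513, 0% of the table called, 138 genes at an unadjusted p under 0.05). Moderated variance called 2 genes of the table and none of these 4. MSMO1 was the only one of the 4 whose libraries did not overlap, against 11.2% of the genes.

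Tau-K174Q against Tau-S199E sets the mimics side by side. HMGCS1 averaged 0.07 ± 0.38 with Tau-K174Q and 1.31 ± 0.37 with Tau-S199E, a difference of -1.24 (95% interval -2.29 to -0.18, adjusted p = 0.265) with no overlap of libraries, against 36.2% of the genes. The differences were 0.78 for NSDHL (-0.06 to 1.63), 0.44 for ACACA (-0.70 to 1.59) and -0.37 for MSMO1 (-1.29 to 0.55), all with overlapping libraries. Leaving out 1 library moved NSDHL between 0.50 (without library 6) and 1.10 (without library 4), and ACACA between 0.14 (without library 11) and 0.60 (without library 12). MSMO1 turned sign without library 12 (0.015). None passed, and 0.0597% of the table was called. These intervals leave room for a difference of either sign in NSDHL, ACACA and MSMO1.

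**Figure D3:**
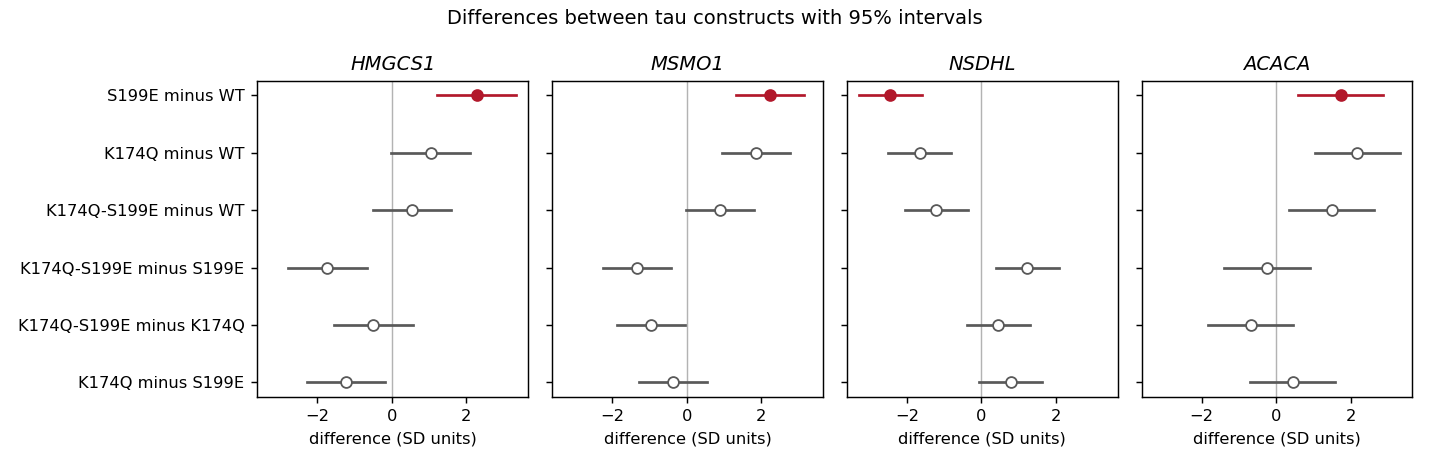
Differences between constructs (SD units, horizontal axis) for each enzyme, as points with 95% intervals from the limma fit, filled red where the adjusted p over the 1676 genes was under 0.05. Of these 6 differences only S199E minus WT passed, with 2.28, 2.23, -2.44 and 1.74 for HMGCS1, MSMO1, NSDHL and ACACA.

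Whether K174Q goes with a different change when S199E is present is the interaction: the change from adding K174Q to Tau-S199E, less the change from adding it to Tau-WT. It was -3.20 SD units for MSMO1 (SE 0.56), the 11th lowest of the 1676 genes, -2.77 for HMGCS1 (SE 0.65), -2.42 for ACACA (SE 0.70) and 2.89 for NSDHL (SE 0.52). All 4 passed (adjusted p = 0.0182, 0.0182, 0.019 and 0.0182), as did 97.0% of the table (45.5% higher and 51.5% lower, and 100% with moderated variance). The authors' deposited table gives log2 fold changes of -1.81 for MSMO1, -1.06 for ACACA, -1.01 for HMGCS1 and 0.92 for NSDHL, for a contrast its header does not name. Their adjusted p-values in the authors' deposited table are 0.00553, 0.0232, 0.0033 and 0.0083. Over its 1676 genes the median size in the authors' deposited table is 1.36, so MSMO1 lay above the median and the other 3 below it. The authors placed HMGCS1 in cluster 4, MSMO1 and ACACA in cluster 3 and NSDHL in cluster 1. Every gene has an adjusted p under 0.05 in the authors' deposited table, and a fold change with the sign of the interaction. The interaction calls are thus not independent of that selection.

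Of 22 sterol synthesis genes listed, 5 were in the table: HMGCS1, IDI1, CYP51A1, MSMO1 and NSDHL. Genes absent from the selected table could not be read here. The counts for this list and those below therefore do not describe a whole pathway. With Tau-S199E against Tau-WT 3 rose, 1 fell and 1 did not pass, with a median difference of 1.75 SD units, against 1.41 over the table. These 4 of 5 stand against 90.0% of the table called, with 48.3% higher and 41.8% lower, and are near it. Because the table holds both rises and falls, its median, here and in the comparisons below, is not the size of a typical rise or fall. CYP51A1, at the median of the list, was only the 677th highest of the 1676 differences. CYP51A1 rose by 1.75 (SE 0.65, adjusted p = 0.0343), while IDI1 differed by 1.54 (adjusted p = 0.052). NSDHL was the only one of the 5 that fell. CYP51A1 had 0.52, 0.38 and 2.49 with Tau-S199E, against -0.63, -0.53 and -0.69 with Tau-WT, so library 12 stood far above the others. Without library 12 CYP51A1 did not pass (1.07, adjusted p = 0.10), and of the 5 genes 2 rose, 1 fell and 2 did not pass, where 49.7% of the table was called.

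With Tau-K174Q against Tau-WT none of the 5 sterol genes passed, and the median difference was 1.04, against 0.58 over the table. IDI1 (1.62, SE 0.66) differed there by more than HMGCS1 (1.04) and CYP51A1 (0.66, SE 0.65), whereas with Tau-S199E HMGCS1 had the larger difference. Whether genes differ in this from each other was not tested. Without Tau-K174Q-S199E library 18, MSMO1 rose, NSDHL fell and the other 3 did not pass, where 40.3% of the table was called. Leaving out library 16 instead, NSDHL fell and the other 4 did not pass, where 2.86% of the table was called. With Tau-K174Q-S199E against Tau-WT none passed either, with a median of 0.47, against 0.20 over the table. With Tau-K174Q-S199E against Tau-S199E none passed, at a median of -1.33, against -0.65 over the table. There, without library 18, NSDHL rose, 3 fell and IDI1 did not pass, where 78.5% of the table was called. Leaving out library 16 instead, none of the 5 passed, where 0% of the table was called. In the interaction all 5 passed, 4 lower and NSDHL higher, where 97.0% of the table was called, so both counts are near the background.

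Of 33 genes of fatty acid synthesis, elongation, desaturation and activation, 5 were in the table, and with Tau-S199E against Tau-WT 4 rose and none fell, where 90.0% of the table was called and 48.3% was higher. Besides ACACA these were MID1IP1, which promotes the polymerisation and activity of acetyl-CoA carboxylase (1.81, SE 0.49, adjusted p = 0.0138), the elongation enzyme HACD3 (2.09, SE 0.53, adjusted p = 0.0123) and the desaturase SCD (2.07, SE 0.50, adjusted p = 0.011). The desaturase FADS1 differed by -1.26 and did not pass (adjusted p = 0.0927). With Tau-K174Q against Tau-WT none passed, the differences being 2.18 for MID1IP1 and for ACACA, 1.90 for SCD, 1.29 for HACD3 and -1.60 for FADS1. MID1IP1 had 0.95, 0.71 and 0.92 with Tau-K174Q, against -1.40, -1.17 and -1.36 with Tau-WT. These groups did not overlap, as in 80.7% of the genes of the table. With Tau-K174Q-S199E against Tau-WT the 5 genes had a median difference of 1.12, against 0.20 over the table, with none passing. MID1IP1 differed there by 1.26 (SE 0.49, adjusted p = 0.533), beside 1.49 for ACACA. With Tau-K174Q against Tau-WT, all 5 passed without Tau-K174Q-S199E library 18, 4 higher and FADS1 lower, where 40.3% of the table was called. Leaving out library 16 instead, ACACA alone passed, where 2.86% of the table was called. Without library 12 ACACA was the only one of the 4 that no longer passed with Tau-S199E.

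Genes of neighbouring routes were few. NPC2, which moves cholesterol out of lysosomes, was 1 of 14 listed genes of sterol storage and transport and rose with Tau-S199E against Tau-WT by 1.84 SD units (SE 0.63, adjusted p = 0.0261). Without library 12 NPC2 did not pass (1.85, adjusted p = 0.066). PRKAG1, a subunit of the AMP-activated kinase that inhibits ACACA, was 1 of 8 listed genes of that kinase and fell, with a difference of -2.16 (SE 0.56, adjusted p = 0.0126). NUS1 of dolichol synthesis, 1 of 9 listed genes of other isoprenoid branches, differed by 1.41 (adjusted p = 0.0636). 

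Fatty acid oxidation, the opposing route, had 4 of 20 genes in the table. HADHB (2.24, SE 0.53), ECI2 (2.26, SE 0.39) and DECR1 (2.29, SE 0.48) rose with Tau-S199E against Tau-WT and ECHS1 fell (-1.79, adjusted p = 0.0253). ECHS1 did not pass without library 12 (-1.80, adjusted p = 0.0651). Genes of synthesis and of breakdown were therefore both found among the rises, in a table where 48.3% of the genes rose. Markers of the mesenchymal neuroblastoma state moved alongside: 3 of 8 were in the table (CD44, S100A6 and SNAI2), and their mean standardised value lay from -0.999 to 0.672 with Tau-K174Q-S199E, 0.280 to 0.486 with Tau-K174Q, 0.636 to 1.83 with Tau-S199E and -1.32 to -0.765 with Tau-WT. All 3 rose with Tau-S199E against Tau-WT, where 90.0% of the table was called and 48.3% was higher. Of them SNAI2 did not pass without library 12 (1.52, adjusted p = 0.0609), where 49.7% of the table was called. Their part in the results was not tested. Of 10 markers of the noradrenergic state of SH-SY5Y none was in the table, so the label of the line was not checked here.

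**Figure D4:**
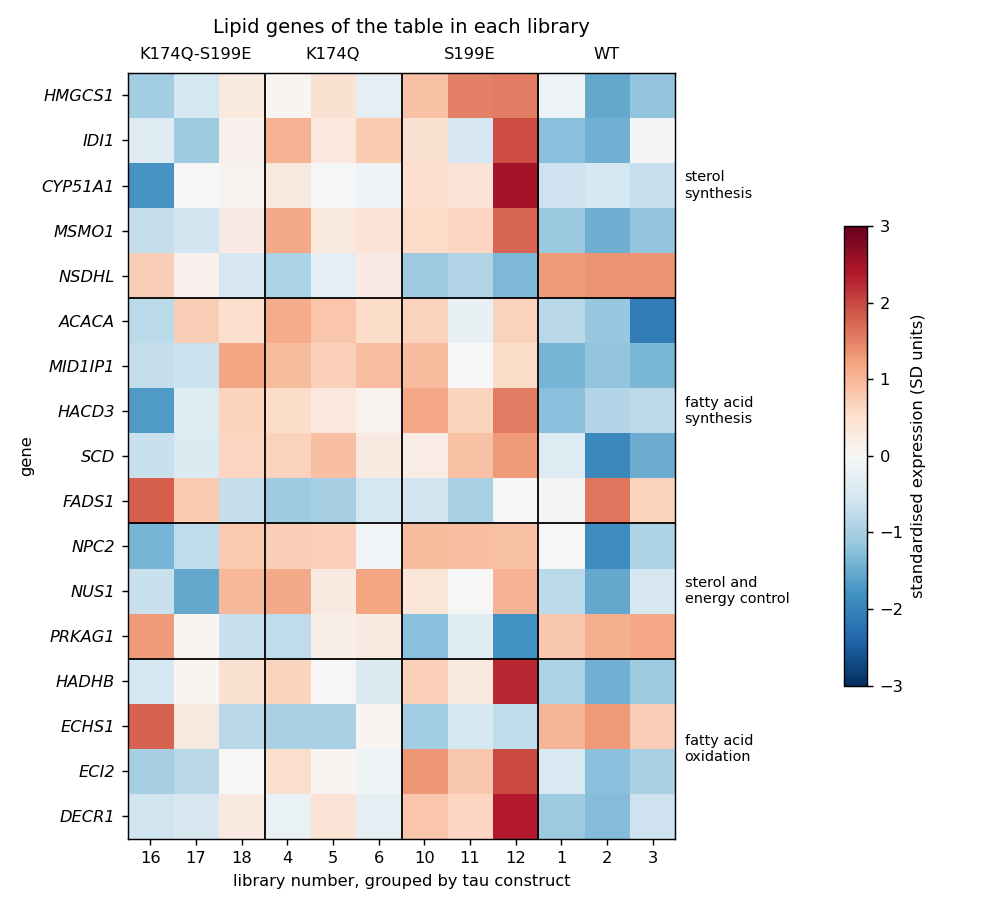
Standardised expression (colour, SD units) of the 17 listed lipid genes of the table in each of the 12 libraries, grouped by construct. NSDHL, FADS1, PRKAG1 and ECHS1 run opposite to the others, and library 12 holds the highest value of CYP51A1 (2.49).

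Among themselves the enzymes were related but not alike. Over the 12 libraries Pearson's r was -0.94 between MSMO1 and NSDHL (Spearman -0.92), -0.87 between HMGCS1 and NSDHL (-0.88), and 0.84 between HMGCS1 and MSMO1 (0.84). With ACACA it was -0.80 for NSDHL (-0.73), 0.78 for MSMO1 (0.72) and 0.60 for HMGCS1 (0.53). These are descriptions, since the libraries fall into 4 constructs and the genes of the table move together: the median size of r with the other 1675 genes was 0.85 for MSMO1, 0.83 for NSDHL, 0.79 for HMGCS1 and 0.64 for ACACA. For MSMO1, 81 genes, counting NSDHL itself, had an r at least as large in size as that with NSDHL. The genes most like HMGCS1 were CXorf40B (r = 0.98), EIF4G1 (0.97) and RAN (0.97), and those most like MSMO1 were CBWD5 (0.99), THAP11 (0.98) and TBCA (0.97). Those most like NSDHL were NTMT1 (0.97), ASNA1 (0.97) and GBP1 (0.97), and among those most like ACACA were ZNF638 (0.91) and DAP3 (0.88). None of these genes is on the lipid lists used here. ACACA had 1 gene with r of at least 0.9, against 131 for HMGCS1, 153 for NSDHL and 232 for MSMO1.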

How the data were processed

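RNA was measured in 12 libraries of transfected SH-SY5Y cells, 3 per construct, and per the labels' protocols each was built from 400 ng with a kit that reads the 3′ ends of mRNA. GRCh38, DESeq2, RSEM 1.2.31 and STAR 2.5.3a are named, without their roles, in the submitters' processing notes. Each deposited library value is a score, standardised per gene by the authors to mean 0 and SD 1, as the values show. The deposited log2 fold change and adjusted p-value belong, per the file headers, to an unnamed contrast, and a cluster number is also deposited. Standardising removes level, depth and fold size, so no interval for counting error can be given.

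A linear model of the 4 construct means was fitted in limma 3.58.1 (R 4.3.3) to all 12 libraries, with each gene's ordinary residual variance (8 degrees of freedom). Each of 7 contrasts was tested two-sided with Benjamini-Hochberg adjustment over 1676 genes, threshold 0.05. Columns name the construct and a library number, not the labels' replicate number, so libraries go by that number. An exact permutation test of 3 against 3 cannot go below 0.1 and was not used. Named genes were the 4 enzymes, all listed genes in the table, and the 3 genes with the highest Pearson's r to each enzyme. The enzymes and lists were chosen with earlier results of these data known. Some genes under this rule are not reported here, and the lists are counted without them. Promoters come from RefSeq windows of GRCh38.p14, found for all 4 enzymes. Alternatives were moderated variance, the 6 libraries compared, ranks and leaving out each library. Leaving out library 12, 16 or 18 for the gene lists, each in chosen comparisons only, was added after seeing the data.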

Additional observations from a re-analysis of the deposited data

Results flagged for a closer look

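The effect of K174Q differed with and without S199E, by the interaction in limma, in all 4 enzymes. With S199E present K174Q went with a difference of -1.33 SD units in MSMO1, against 1.87 in its absence (interaction -3.20). For HMGCS1 the effects were -1.73 with S199E and 1.04 without it (interaction -2.77), for NSDHL 1.24 and -1.66 (interaction 2.89), and for ACACA -0.25 and 2.18 (interaction -2.42). The interaction was also negative past the threshold in IDI1 (-2.70), CYP51A1 (-2.34), MID1IP1 (-2.73), HACD3 (-2.88), SCD (-2.85), NPC2 (-2.74), NUS1 (-2.67), HADHB (-2.33), ECI2 (-3.02), DECR1 (-2.54), CD44 (-3.04), SNAI2 (-2.56) and S100A6 (-2.96). It was positive past the threshold in FADS1 (2.75), PRKAG1 (2.48) and ECHS1 (2.83). As 97.0% of the table passed, these calls are near the background of the table. Every gene of the table has an authors' adjusted p under 0.05 and a deposited fold change with the sign of the interaction. These interaction calls are therefore not independent of how the table was selected. No test for outlying samples was run on groups of 3 libraries, although library 12 was singled out by its SD over the genes (1.67).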

How the results depend on the processing

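Over the table, the count of genes called stayed within 1.5 times for Tau-S199E against Tau-WT and for the interaction with moderated variance, with ranks and, where possible, with the 6 libraries compared. For Tau-K174Q against Tau-WT it was 0, and 1004 with moderated variance, 819 with 6 libraries and 26 with ranks. For Tau-K174Q-S199E against Tau-S199E it was 2, and 1153, 0 and 411 in the same order. For Tau-K174Q against Tau-S199E it was 1, and 0 under each of the 3. For Tau-K174Q-S199E against Tau-K174Q it was 0, and 2 with moderated variance. The cause was not tested.

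Leaving out each library gave 833 to 1572 genes for Tau-S199E against Tau-WT (lowest without library 12) and 1273 to 1628 for the interaction. It gave 0 to 675 for Tau-K174Q against Tau-WT, 0 to 1315 for Tau-K174Q-S199E against Tau-S199E and 0 to 142 for Tau-K174Q-S199E against Tau-K174Q, each highest without library 18. It gave 0 to 2 for Tau-K174Q-S199E against Tau-WT and 0 to 3 for Tau-K174Q against Tau-S199E. Of the 4 enzymes, ACACA turned sign in Tau-K174Q-S199E against Tau-S199E without library 16 (0.23; range -0.55 to 0.23), and MSMO1 in Tau-K174Q against Tau-S199E without library 12 (0.015; range -0.63 to 0.015). In the interaction and, apart from ACACA without library 12, in Tau-S199E against Tau-WT the enzymes passed with each library left out.

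No paired analysis was possible because the columns carry no replicate number of the labels. A pseudocount, a low-value filter or another scaling cannot be applied to standardised values.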
